A study of Mus musculus with 12 samples.

Results

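The nuclear receptors other than the corticoid receptors were followed in sorted mouse kidney tubules, as the 39 genes whose names on the array matched a list of 39 receptors. The list was drawn up by family. All 39 were on the array, with 66 of its 41174 probes, and 33 of them, of 17157 genes in all, had a probe bright enough to test. Tubules of 4 mice were sorted by a COPAS large-particle sorter into EGFP+ tubules, which carry green fluorescent protein and are distal convoluted tubules (DCT), the total fraction called ALL, and EGFP- tubules without fluorescence. Each of the 12 samples was 1 fraction of 1 mouse. Mice 2 and 4 were male and mice 1 and 3 female. The sources used here do not give the strain, the age, the promoter that drives EGFP or the way the tubules were freed. Group labels were taken from the samples' own scanner files. In the authors' deposited value table, each of the 12 columns matched, at a correlation of 1, the scanner array of another fraction of the same mouse than its heading names, and none matched its own.

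Nuclear receptors are transcription factors that bind DNA directly, and most are switched by small lipid-soluble ligands such as thyroid hormone, retinoic acid, vitamin D, fatty acids, oxysterols and bile acids. Many bind as a pair with a retinoid X receptor (RXR), while the estrogen-related receptors and NR4A receptors can act without a bound ligand and are set by their amount and by coactivators. In the kidney, HNF4A and PPARA are known for the proximal tubule, and the vitamin D receptor and estrogen-related receptors for distal segments and mitochondrial metabolism.

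Nuclear receptors read short DNA elements built on the core AGGTCA, and the estrogen-related receptors prefer the extended form TCAAGGTCA. Promoters of 4 receptors that differed between fractions are shown. They were chosen because AGGTCA or TCAAGG, which is only the start of the extended form, can be seen in them. They are RefSeq sequences of the build GRCm38.p6, from 250 bases before to 50 after the transcript start, 5′ to 3′ on the gene's strand, with matches to TCAAGG or AGGTCA on either strand in capitals. The window of Nr0b2 lies at chr4:133553126-133553425 (+), that of Esrrg at chr1:187651991-187652290 (+), that of Nr1h4 at chr10:89506609-89506908 (-) and that of Rxra at chr2:27709042-27709341 (+). Nr0b2 and Nr1h4 have 1 promoter each in the table. Esrrg has 4, of which 2 hold TCAAGG and 2 neither element, and Rxra has 2, of which the other holds neither.
Nr0b2: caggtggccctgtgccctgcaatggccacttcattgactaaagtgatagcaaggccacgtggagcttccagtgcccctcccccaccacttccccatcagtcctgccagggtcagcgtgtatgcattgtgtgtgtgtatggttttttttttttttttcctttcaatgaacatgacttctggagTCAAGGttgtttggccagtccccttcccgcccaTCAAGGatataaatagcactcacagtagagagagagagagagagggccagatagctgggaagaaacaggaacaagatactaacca
Esrrg: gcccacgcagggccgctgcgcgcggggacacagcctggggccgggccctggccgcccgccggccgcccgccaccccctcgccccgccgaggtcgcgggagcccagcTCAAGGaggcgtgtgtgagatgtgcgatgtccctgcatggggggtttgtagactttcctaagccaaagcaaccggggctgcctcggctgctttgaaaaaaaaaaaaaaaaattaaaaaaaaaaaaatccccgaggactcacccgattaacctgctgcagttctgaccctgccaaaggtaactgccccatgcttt
Nr1h4: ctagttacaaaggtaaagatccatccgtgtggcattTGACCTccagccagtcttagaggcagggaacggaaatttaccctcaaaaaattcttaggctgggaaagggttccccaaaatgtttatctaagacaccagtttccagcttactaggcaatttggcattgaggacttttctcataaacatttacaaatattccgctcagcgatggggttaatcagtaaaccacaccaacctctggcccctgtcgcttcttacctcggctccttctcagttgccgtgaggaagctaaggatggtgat
Rxra: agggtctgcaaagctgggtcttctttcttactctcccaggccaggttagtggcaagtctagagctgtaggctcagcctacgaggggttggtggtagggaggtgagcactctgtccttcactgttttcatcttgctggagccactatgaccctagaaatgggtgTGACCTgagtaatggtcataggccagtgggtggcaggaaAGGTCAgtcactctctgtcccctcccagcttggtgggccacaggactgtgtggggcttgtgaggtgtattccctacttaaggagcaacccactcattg
The Nr0b2 promoter held TCAAGG at 2 places, starting 68 and 35 bases before the transcript start. Of 32851 promoters in the table, 1.32% held it at least 2 times, and Nr0b2 was the only one of 57 promoters of the receptors that did. TCAAGG on either strand was in 8 of the 57 receptor promoters and in 14.4% of all promoters. AGGTCA was in 11 of the 57 and in 16.3% of all. TCAAGG and AGGTCA overlap in TCAAGGTCA, which was in none of the 57 and in 0.423% of all promoters. Direct repeats of AGGTCA with 1, 3 or 4 bases between were in none of the 57, and in 0.0396%, 0.00609% and 0.0152% of all promoters. The promoters of Esrrb, Hnf4a and Nr1i2 held neither TCAAGG nor AGGTCA in these windows. The table had entries for 37 of the 39 receptors, with none for Hnf4g and Thra.

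Signals are given as the log2 of an array's processed signal minus that array's 75th percentile, so that 0 is the upper quartile of the array. The 75th percentile was between 923 and 2275 signal units over the 12 arrays, and the scanner software called 53.9% to 65.6% of probes well above background. The sort was checked with markers, under the labels of the scanner files. All 6 DCT markers were higher in EGFP+ than in EGFP- tubules, with a median difference of 6.66, and all 8 proximal tubule markers were lower, by differences of -5.50 to -4.59. All 4 thick ascending limb markers were higher (median 1.76). All 6 podocyte, all 6 endothelial and all 4 collecting duct principal cell markers were lower (medians -6.62, -3.62 and -3.80). The other lists were mixed. Of 5 intercalated cell markers, 1 was higher, 1 was lower and 3 did not pass. Of 7 smooth muscle and stroma markers 6 were lower, and of 5 leukocyte markers tested 4 were, while 1 in each list did not pass. In these bulk samples, fewer cells of a type and less RNA per cell cannot be told apart.

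Of the 33 receptors tested, 9 were higher in EGFP+ than in EGFP- tubules, 12 were lower and 12 did not pass (limma, adjusted p under 0.05). Over all 17157 genes, 32.8% were higher and 25.7% lower, 58.5% in either direction. The receptors' shares, 27.3% higher and 36.4% lower, were near that background. The median difference over the receptors was 0.06, beside 0.12 over all genes. The groups of 4 mice did not overlap for 18 of the 33 receptors, beside 56% of all genes. The receptors higher in EGFP+ tubules were led by the estrogen-related receptor Esrrb, the corepressor Nr0b2, Esrrg and the vitamin D receptor Vdr. Those lower were led by the xenobiotic receptor Nr1i2, Hnf4a, the bile acid receptor Nr1h4 and the oxysterol receptor Nr1h3. All 21 called receptors had the same sign within each of the 3 slides, which mix sex with fraction in part. The receptors were called on these same arrays, so the shared sign is no separate support. Within slide 2, Rxrg differed by only -0.07 and Hnf4g by -0.11.

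**Figure D1:**
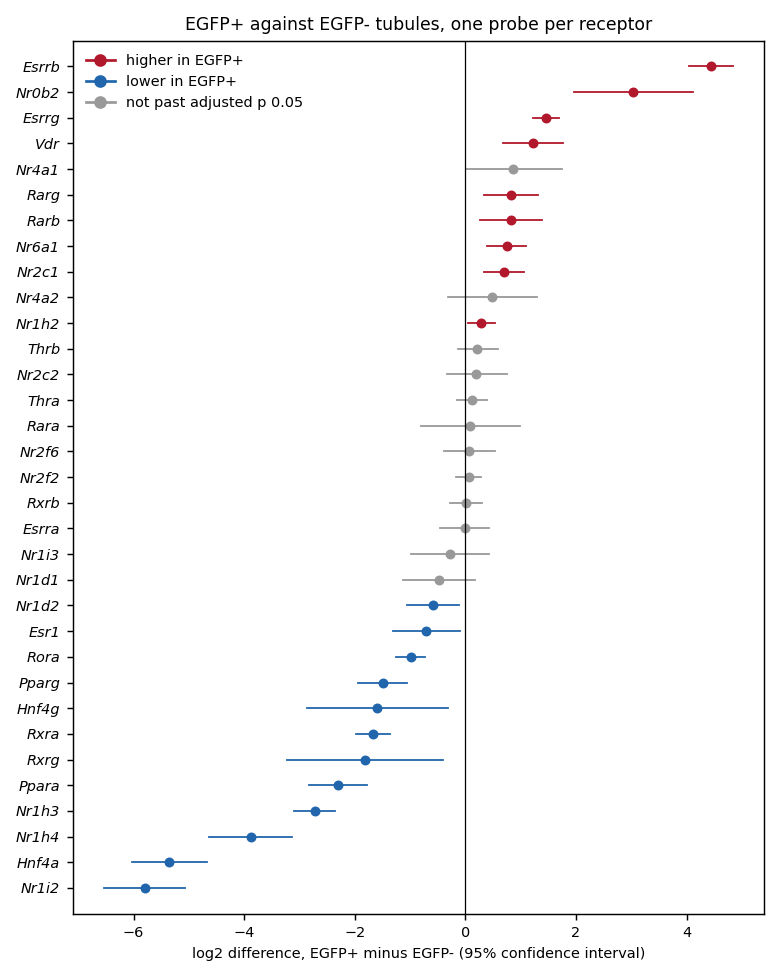
Difference between EGFP+ and EGFP- tubules on the log2 scale for the 33 receptors tested, by the probe with the highest mean signal, with the 95% confidence interval from the fit (n = 4 mice per fraction). The 9 receptors higher in EGFP+ run up to 4.44 for Esrrb and the 12 lower down to -5.79 for Nr1i2, and the 12 others have intervals that include 0 or miss the adjusted threshold.

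The estrogen-related receptors (ERR) are orphan receptors that switch on genes of oxidative metabolism. Esrrb, the member also known from stem cells and the inner ear, had signals of 2.56, 2.35, 2.94 and 2.67 in the EGFP+ tubules of mice 1 to 4. In ALL it had -0.16, -0.65, -0.26 and -0.59, and in EGFP- tubules -1.63, -1.86, -1.57 and -2.20. The 3 fractions did not overlap. Esrrb was 21.8-fold higher in EGFP+ than in EGFP- tubules (log2 difference 4.44 ± 0.18 SE, adjusted p = 4.57e-09) and 8.25-fold higher than in ALL (adjusted p = 8.95e-08). Within slides 1, 2 and 3 its difference from EGFP- was 4.08, 4.80 and 4.56. It was the only receptor that differed between ALL and EGFP- tubules, 2.64-fold higher in ALL (log2 difference 1.40, adjusted p = 0.00207), beside 1.28% of all genes called higher there and 0.00583% lower (1.28% in either direction). Its ALL and EGFP- signals did not overlap, as for 2.91% of all genes. The probe lies at 87410542 to 87410601 on chromosome 12 of the mm8 build, to which all probe positions refer. A further Esrrb probe did not stand well above background in EGFP- tubules of any mouse and was at least 6.17-fold higher in EGFP+ (adjusted p = 1.40e-06). For such a lower bound, each array of the dim fraction was given the lowest signal that still counted as well above background there, or the probe's measured signal where that was higher, and the bright fraction's mean was compared with the average of these.

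Esrrg, an ERR known for mitochondrial genes in heart and kidney, had signals of 3.58, 3.53, 3.60 and 3.50 in EGFP+ tubules. They were 2.14, 2.18, 2.16 and 2.33 in ALL and 2.02, 1.95, 2.08 and 2.33 in EGFP- tubules. All EGFP+ samples stood above all others. Esrrg was 2.75-fold higher in EGFP+ than in EGFP- tubules (log2 difference 1.46 ± 0.10 SE, adjusted p = 2.56e-07; probe at 189915027 to 189915086 on chromosome 1). Its dimmer probe, at 189911946 to 189912005, differed by 0.28 ± 0.23 SE and did not pass (adjusted p = 0.307). Esrra, the ERR most tied to the coactivator PGC-1alpha, averaged 4.18 ± 0.09 in EGFP+ tubules (SD, n = 4 mice per fraction), beside 4.26 ± 0.35 in ALL and 4.19 ± 0.35 in EGFP-. Its difference from EGFP- was -0.01, with a 95% interval of -0.45 to 0.43.

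Among 15 genes listed as ERR targets, 7 were higher in EGFP+ than in EGFP- tubules, none was lower and 8 did not pass. Over all genes, 32.8% were higher and 25.7% lower. The median difference was 0.64, beside 0.12 over all genes. Cpt1b, the muscle-type carnitine palmitoyltransferase, was 22.5-fold higher and Idh3a, a subunit of the citric acid cycle enzyme isocitrate dehydrogenase, 2.07-fold. Mfn2, a mitochondrial fusion protein, was 1.80-fold higher and citrate synthase Cs 1.74-fold. Of 20 coactivators and corepressors, 13 were higher, 1 was lower and 6 did not pass (median 0.54), beside the same shares of all genes. Among those higher were Perm1, a muscle regulator that works with PGC-1 and ERR (57.9-fold), Ppargc1a, which encodes PGC-1alpha (3.07-fold), and the coactivator Ncoa1 (1.90-fold).

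Nr0b2 encodes SHP, a receptor without a DNA-binding domain that represses other nuclear receptors and is known as a bile acid sensor's target in liver. Its signals were -2.02, -2.32, -2.10 and -2.25 in EGFP+ tubules. They were -4.95, -5.43, -4.98 and -5.79 in ALL and -3.98, -6.64, -4.33 and -5.89 in EGFP- tubules. All EGFP+ samples stood above all others, and the EGFP- samples were widely spread. In each fraction the female mice 1 and 3 stood above the male mice 2 and 4. Nr0b2 was 8.21-fold higher in EGFP+ than in EGFP- tubules (log2 difference 3.04 ± 0.49 SE, adjusted p = 2.32e-04; probe at 132825855 to 132825914 on chromosome 4). It was well above background on 4 EGFP+, 3 ALL and 2 EGFP- arrays, so that the fold rests on dim signals. With normexp background correction, which adds a fixed offset to every signal, the difference was 1.96 (adjusted p = 9.36e-04), and against ALL it was 1.31 (adjusted p = 0.0140), beside 3.11 without it. The orphan receptor Nr6a1, known from germ cells, was 1.68-fold higher (log2 difference 0.75, adjusted p = 0.00177).

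The vitamin D receptor Vdr mediates the action of calcitriol on calcium transport. It had signals of 5.78, 5.81, 5.66 and 6.05 in EGFP+ tubules. They were 4.46, 4.86, 4.51 and 5.36 in ALL and 4.10, 4.76, 4.39 and 5.17 in EGFP- tubules. The EGFP+ samples did not overlap with the others. In each fraction the male mice 2 and 4 stood above the female mice 1 and 3, with mouse 4 the highest. Vdr did not pass for sex (adjusted p = 0.22). Vdr was 2.33-fold higher in EGFP+ than in EGFP- tubules (log2 difference 1.22 ± 0.25 SE, adjusted p = 0.00115; probe at 97682739 to 97682798 on chromosome 15). Of 14 genes of vitamin D handling and action, 7 were higher, 7 were lower and all passed (median -0.51). Of all genes, 32.8% were higher and 25.7% lower. The largest differences were on the lower side, in the calcitriol-degrading enzyme Cyp24a1 (-5.17), the vitamin D binding protein Gc (-5.00) and the uptake receptors Cubn (-4.92) and Lrp2 (-4.59). The 7 higher were Trpv6, Slc8a1, Calb1, Trpv5, S100g, Kl and Atp2b1, with differences between 4.08 and 0.34. All but the cofactor Kl carry or buffer calcium, and they are named after their values were seen.

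**Figure D2:**
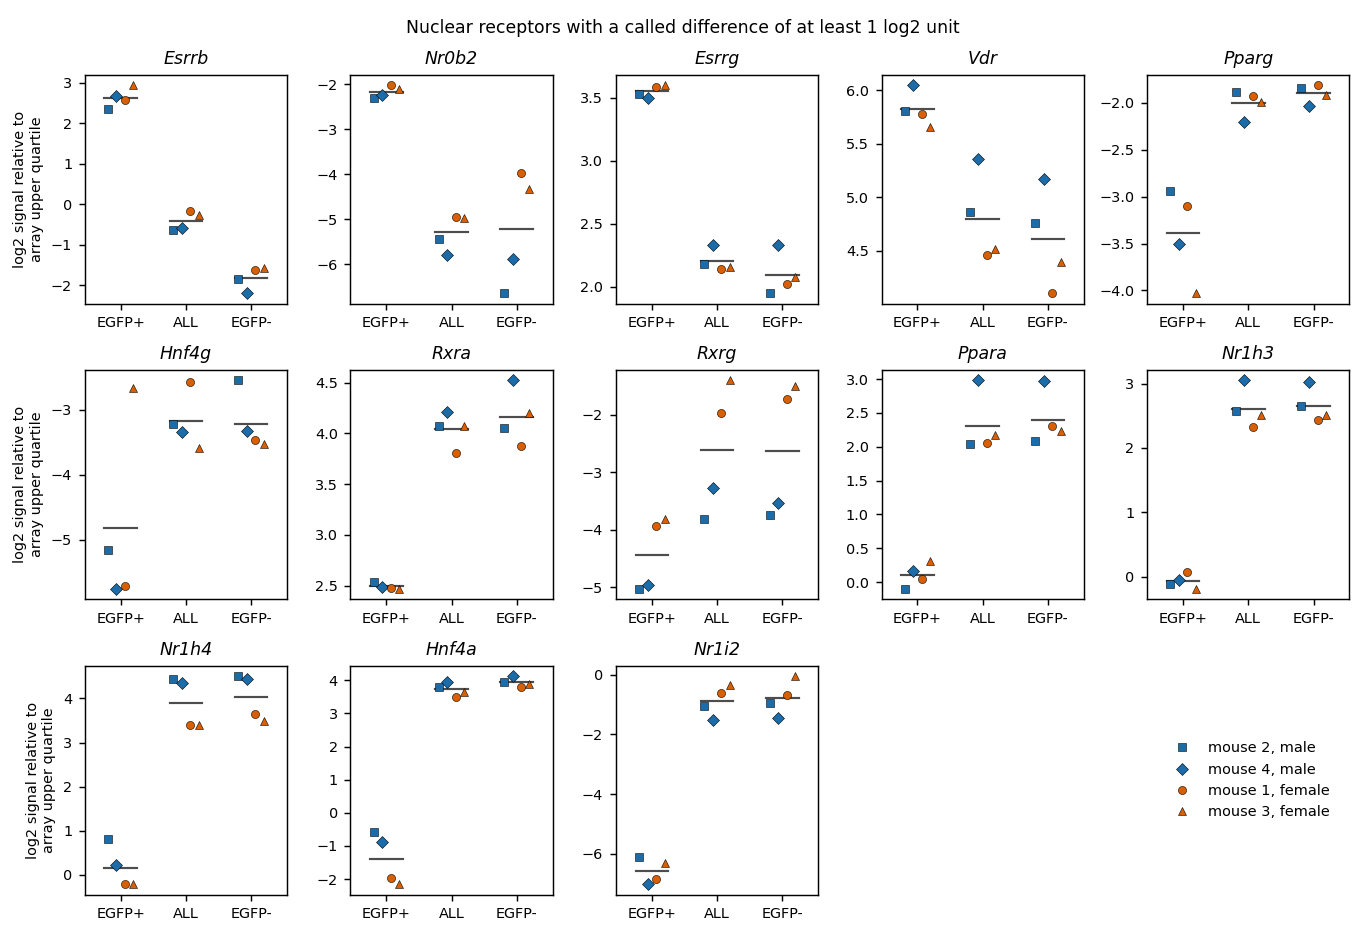
Signal of the 13 receptors with a called difference of at least 1 between EGFP+ and EGFP- tubules, on the log2 scale relative to each array's upper quartile. Each point is 1 mouse, the lines are means of 4 mice, and the vertical scale differs between panels. EGFP+ points lie apart from the EGFP- points in every panel but that of Hnf4g.

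The HNF4 receptors drive genes of the proximal tubule and liver, and both were lower in EGFP+ tubules, Hnf4a with the largest difference after Nr1i2. Hnf4a had signals of -1.96, -0.58, -2.16 and -0.88 in EGFP+ tubules. They were 3.50, 3.79, 3.66 and 3.96 in ALL and 3.81, 3.95, 3.90 and 4.13 in EGFP- tubules. The EGFP+ samples were far below the others and spread more widely, with the male mice 2 and 4 above the female mice 1 and 3. Hnf4a was 40.7-fold lower in EGFP+ than in EGFP- tubules (log2 difference -5.35 ± 0.31 SE, adjusted p = 4.41e-08; probe at 163263779 to 163263838 on chromosome 2), and -5.09, -6.11 and -4.90 within slides 1, 2 and 3. Its other probes differed by -4.03 and -5.65, the second of these at least 16.7-fold lower with no EGFP+ array well above background.

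The Hnf4a signal left in EGFP+ tubules was 1.83%, 4.32%, 1.5% and 3.1% of that in EGFP- tubules of the same mouse, for mice 1 to 4. For the 8 proximal tubule markers the median was 2.37%, 4.42%, 2.08% and 3.70%, with 6 of the 8 measured on both arrays of mouse 2. On this brightest probe, the values of Hnf4a thus lay close to those of the markers, and mice 2 and 4 had more of both. Its dimmer probes, at -4.03 and -5.65, lay on either side of the markers' differences of -5.50 to -4.59. They were well above background on 2 and 0 EGFP+ arrays. The summed signal of 4 proximal tubule markers measured on all arrays was 0.65 to 1.80 in EGFP+ tubules, against 5.99 to 6.55 in EGFP- tubules. The part of proximal tubule material in the receptor values was not tested.

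Hnf4g, a close relative of Hnf4a, had signals of -5.70, -5.15, -2.66 and -5.75 in EGFP+ tubules. They were -2.57, -3.22, -3.59 and -3.34 in ALL and -3.47, -2.55, -3.53 and -3.33 in EGFP- tubules. The EGFP+ sample of mouse 3 lay within the EGFP- range, the other EGFP+ samples were below it, and only 1 EGFP+ array was well above background. The difference from EGFP- was -1.59 ± 0.58 SE (adjusted p = 0.0348; probe at 3642828 to 3642887 on chromosome 3). It did not pass without mouse 1, 2 or 4 (adjusted p = 0.132, 0.200 and 0.155) and was -2.42 without mouse 3 (adjusted p = 2.77e-04). With normexp background correction the difference was 0.03 (adjusted p = 0.960), and with no filter on dim probes the call was lost (adjusted p = 0.0559). Of 10 genes tested as HNF4A targets, 9 were lower in EGFP+ than in EGFP- tubules, none was higher and 1 did not pass (median -4.97). Of all genes, 25.7% were lower and 32.8% higher. Apom and Apob, apolipoproteins, were 42.7-fold and 37.3-fold lower and the glucose transporter Slc2a2 40.7-fold. The thyroxine carrier Ttr was at least 23.6-fold lower.

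Nr1i2 encodes the pregnane X receptor (PXR), which senses drugs and bile acids and induces genes of drug clearance. It had signals of -6.86, -6.10, -6.30 and -7.03 in EGFP+ tubules, none of them well above background. They were -0.60, -1.05, -0.35 and -1.51 in ALL and -0.68, -0.94, -0.04 and -1.46 in EGFP- tubules. The EGFP+ samples were all below the others. Nr1i2 was at least 22.3-fold lower in EGFP+ than in EGFP- tubules (measured log2 difference -5.79 ± 0.34 SE, adjusted p = 4.78e-08; probe at 38167898 to 38167957 on chromosome 16). With normexp background correction the difference was -2.09 (adjusted p = 0.00232), a smaller fold than that bound, which holds for the processed signal alone. The receptor Nr1i3 (CAR), which shares many target genes with PXR, differed by -0.27, with a 95% interval of -0.98 to 0.43. Of 6 genes listed as PXR and CAR targets, 1 was higher, 3 were lower and 2 did not pass (median -1.77). Of all genes, 32.8% were higher and 25.7% lower. Abcb1a, a drug efflux pump, was at least 2.52-fold lower, Cyp2c29 7.60-fold lower and the electron donor Por 2.56-fold lower. Cyp3a13 was 1.67-fold higher.

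Nr1h4 encodes the bile acid receptor FXR. It had signals of -0.21, 0.80, -0.22 and 0.21 in EGFP+ tubules. They were 3.39, 4.44, 3.40 and 4.35 in ALL and 3.65, 4.51, 3.50 and 4.44 in EGFP- tubules. The EGFP+ samples were all below the others, and in each fraction the male mice 2 and 4 stood above the female mice 1 and 3. Nr1h4 was 14.7-fold lower in EGFP+ than in EGFP- tubules (log2 difference -3.88 ± 0.34 SE, adjusted p = 1.54e-06; probe at 88884353 to 88884412 on chromosome 10). Its remaining signal in EGFP+ tubules was 6.88%, 7.66%, 7.60% and 5.31% of that in EGFP- tubules of the same mouse.

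Nr1h3 encodes the liver X receptor LXRalpha, an oxysterol sensor. It had signals of 0.07, -0.11, -0.19 and -0.06 in EGFP+ tubules. They were 2.32, 2.57, 2.51 and 3.05 in ALL and 2.44, 2.65, 2.51 and 3.02 in EGFP- tubules. The EGFP+ samples lay close together and below the others. Nr1h3 was 6.60-fold lower in EGFP+ than in EGFP- tubules (log2 difference -2.72 ± 0.17 SE, adjusted p = 8.64e-08; probe at 90985117 to 90985176 on chromosome 2). The signal left was 11.9% to 19.4% of that in EGFP- tubules of the same mouse, above the highest value of any proximal tubule marker in any mouse, which was 6.13%.

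Nr1h2 encodes LXRbeta, the broadly expressed partner of LXRalpha, and was 1.22-fold higher in EGFP+ than in EGFP- tubules (adjusted p = 0.0407). Its groups overlapped, and the call was lost without mouse 1, 3 or 4 (adjusted p = 0.176, 0.181 and 0.158), with normexp background correction (0.18, adjusted p = 0.250), with quantile normalization (adjusted p = 0.0811) and with no filter (adjusted p = 0.100). Of 10 genes listed as LXR and FXR targets, 2 were higher in EGFP+ tubules, 6 were lower and 2 did not pass (median -1.25). Of all genes, 32.8% were higher and 25.7% lower. The subunits of the basolateral bile acid and steroid transporter, Slc51a and Slc51b, were 43.7-fold and 43.1-fold lower. The lipid carrier Apoe was 10.9-fold lower and the fatty acid desaturase Scd1 5.54-fold. The 2 higher were the cholesterol exporters Abcg1 and Abca1, with differences of 1.93 and 0.77, named after their values were seen.

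The PPARs are fatty acid sensors. Ppara, which drives fatty acid oxidation, had signals of 0.04, -0.10, 0.31 and 0.17 in EGFP+ tubules. They were 2.05, 2.04, 2.18 and 2.98 in ALL and 2.30, 2.09, 2.24 and 2.97 in EGFP- tubules. The EGFP+ samples were all below the others, and mouse 4 was highest in ALL and EGFP-. Ppara was 4.91-fold lower in EGFP+ than in EGFP- tubules (log2 difference -2.30 ± 0.24 SE, adjusted p = 6.16e-06; probe at 85629291 to 85629350 on chromosome 15).

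Pparg, known for fat cells and for the collecting duct, had signals of -3.10, -2.94, -4.03 and -3.50 in EGFP+ tubules. They were -1.93, -1.89, -1.99 and -2.20 in ALL and -1.81, -1.84, -1.92 and -2.03 in EGFP- tubules. All EGFP+ samples were below the others. Pparg was 2.81-fold lower in EGFP+ than in EGFP- tubules (log2 difference -1.49 ± 0.20 SE, adjusted p = 6.00e-05; probe at 115455814 to 115455873 on chromosome 6), and -0.47 with normexp background correction (adjusted p = 0.0956). Endothelial markers and collecting duct principal cell markers were lower in EGFP+ tubules as well, by differences of -5.77 to -2.55 and of -4.33 to -3.58, and their part in the Pparg value was not tested. Of 18 genes listed as PPAR targets, 4 were higher, 12 were lower and 2 did not pass (median -1.96). Of all genes, 32.8% were higher and 25.7% lower. Vnn1, a pantetheinase, was 39.1-fold lower, Cyp4a10 and Cyp4a14, fatty acid hydroxylases, 38.7-fold and 33.1-fold, and the fatty acid binding protein Fabp1 38.0-fold. Cyp4a10 and Cyp4a14 belong to a family of near-identical copies, and whether their probes read other copies was not tested. The 4 higher were Pdk4 (2.99), Fabp3 (2.60), Cpt1a (1.08) and Hadha (0.91), genes of fuel choice and fatty acid use, named after their values were seen.

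**Figure D3:**
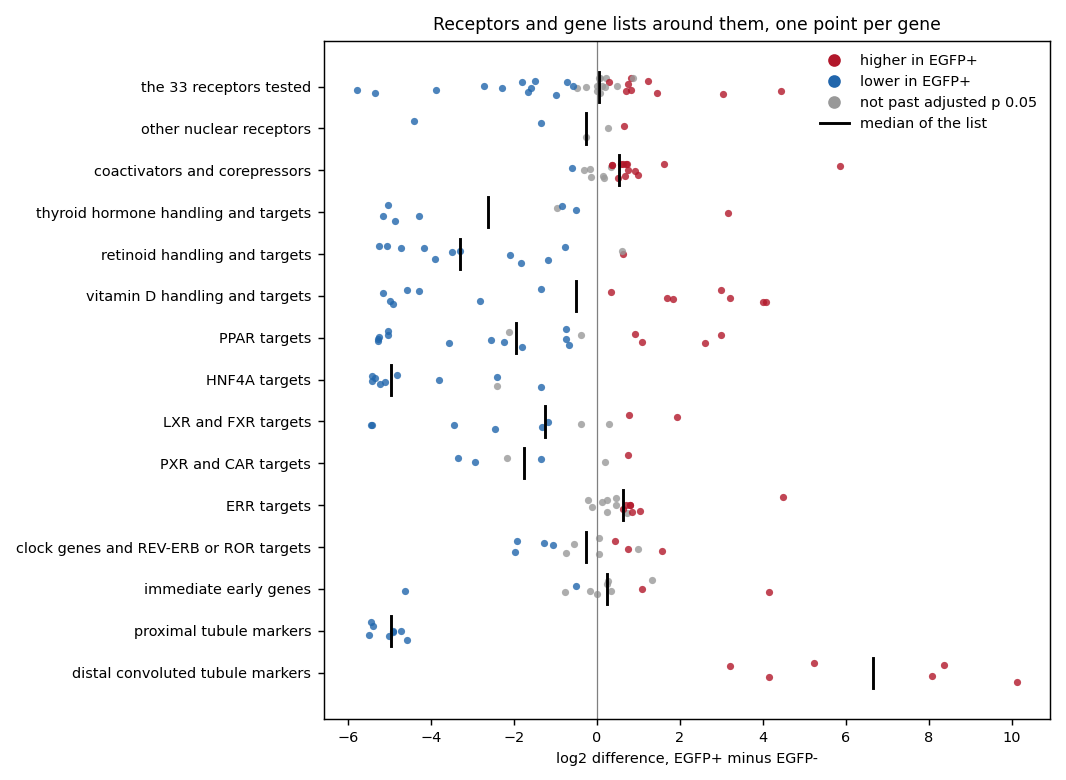
Difference between EGFP+ and EGFP- tubules on the log2 scale, 1 point per gene, for the 33 receptors, 12 lists of genes around them and 2 lists of segment markers. Black bars are medians of the lists, which run from 6.66 for the DCT markers through 0.64 for the ERR targets to -4.97 for the HNF4A targets and -4.96 for the proximal tubule markers.

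The retinoid X receptors pair with many of the receptors above. Rxra had signals of 2.48, 2.54, 2.47 and 2.49 in EGFP+ tubules. They were 3.81, 4.07, 4.07 and 4.21 in ALL and 3.88, 4.05, 4.20 and 4.52 in EGFP- tubules. The EGFP+ samples lay close together and below all others. Rxra was 3.18-fold lower in EGFP+ than in EGFP- tubules (log2 difference -1.67 ± 0.14 SE, adjusted p = 1.00e-06; probe at 27584900 to 27584959 on chromosome 2), and its further probe differed by -1.90 (adjusted p = 1.12e-04). Rxrb differed by 0.01, with a 95% interval of -0.28 to 0.30.

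Rxrg was dim and differed both between fractions and between the sexes. In EGFP+ tubules it had signals of -5.03 and -4.97 in the male mice 2 and 4 and of -3.94 and -3.81 in the female mice 1 and 3. In ALL it had -3.82 and -3.28 in males and -1.97 and -1.40 in females. In EGFP- tubules it had -3.74 and -3.54 in males and -1.72 and -1.50 in females. Females stood above males in each fraction. Rxrg was 3.52-fold lower in EGFP+ than in EGFP- tubules (log2 difference -1.81 ± 0.64 SE, adjusted p = 0.0299; probe at 169476168 to 169476227 on chromosome 1). The difference was -2.77, -0.07 and -2.45 within slides 1, 2 and 3, and none of these slides is balanced for sex. Slide 2 sets a female EGFP+ array against a male EGFP- array. Slide 1 sets EGFP+ arrays of both sexes against a female EGFP- array, and slide 3 a male EGFP+ array against EGFP- arrays of both sexes. The call was lost without mouse 1, 3 or 4 (adjusted p = 0.100, 0.0612 and 0.0584), and with normexp background correction the difference was -0.40 (adjusted p = 0.442). It was kept with the mouse as a block (-1.81, adjusted p = 4.69e-05), and Rxrg was lower in EGFP+ than in EGFP- tubules in 4 of 4 mice.

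Over the means of each mouse's fractions, Rxrg was 3.19-fold lower in the 2 males than in the 2 females (log2 difference -1.67 ± 0.18 SE, adjusted p = 0.0371). It was the only receptor to pass for sex, with 0 higher and 1 lower of 33, beside 0.927% of all genes higher and 0.344% lower in males (1.27% in either direction). The call was lost without any one of mice 1 to 4 (adjusted p = 0.0842, 0.0828, 0.122 and 0.167), where 1 sex is a single animal assumed to vary like the other. It was also lost with normexp background correction (-0.58, adjusted p = 0.0631), quantile normalization (adjusted p = 0.0640) and no filter (adjusted p = 0.147). Nr1h4 differed between males and females by 0.87 ± 0.15 SE (adjusted p = 0.0921) and Nr0b2 by -0.99 ± 0.14 SE (adjusted p = 0.0652), and neither passed. Centred on the median, both did (adjusted p = 0.0240 and 0.0437), and with normexp background correction Nr1h4 did (adjusted p = 0.0187). No receptor, and none of the 17156 genes tested, passed for a difference between EGFP+ and EGFP- tubules that depends on sex in limma, where 1997 genes had an unadjusted p under 0.05. Of the receptors, Nr0b2 had the lowest such p, with a dependence of 1.89 ± 0.32 SE (male minus female, adjusted p = 0.237).

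**Figure D4:**
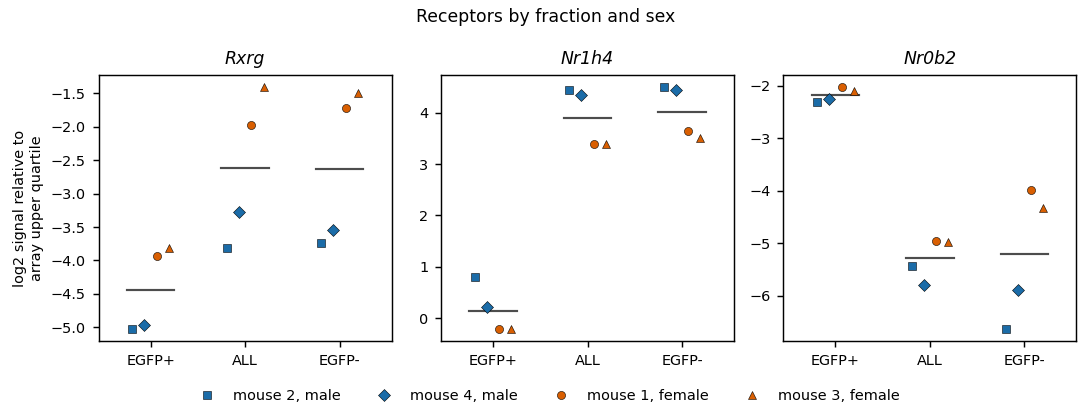
Signal of Rxrg, Nr1h4 and Nr0b2 by fraction and mouse on the log2 scale relative to each array's upper quartile, with males in blue, females in orange and lines at the mean of 4 mice. Rxrg and Nr0b2 are lower and Nr1h4 higher in both males than in both females in every fraction, and only Rxrg passed the test for sex.

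The retinoic acid receptors bind all-trans retinoic acid. Rarb was 1.77-fold higher in EGFP+ than in EGFP- tubules (log2 difference 0.82, adjusted p = 0.0157), a call lost without mouse 2 or 3 (adjusted p = 0.0763 and 0.0743). The best Rarg probe differed by 0.83 (adjusted p = 0.00799), was lost without mouse 2 (adjusted p = 0.0530), and its further tested probe, at 0.64, did not pass. Rara was well above background on 1 EGFP+, 3 ALL and 1 EGFP- arrays and differed by 0.08 (95% interval -0.81 to 0.98). Of 13 genes of retinoid handling and action, 1 was higher, 11 were lower and 1 did not pass (median -3.31). Of all genes, 32.8% were higher and 25.7% lower. Lrat, which stores retinol as esters, was at least 11.0-fold lower, the retinaldehyde dehydrogenases Aldh1a7 33.3-fold and Aldh1a3 at least 3.63-fold, and the retinoic acid target Tgm2 26.4-fold.

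The thyroid hormone receptors Thra and Thrb did not pass on their brightest probes, at differences of 0.12 (95% interval -0.15 to 0.40) and 0.22 (-0.14 to 0.59). A second Thra probe was higher in EGFP+ tubules by 0.69 (adjusted p = 0.0381) and a second Thrb probe by 0.43 (adjusted p = 0.0181). Of 8 genes of thyroid hormone handling and action, 1 was higher, 6 were lower and 1 did not pass (median -2.62). Of all genes, 32.8% were higher and 25.7% lower. The malic enzyme Me1, a thyroid hormone target, was 35.7-fold lower and the deiodinase Dio1 33.0-fold. The inactivating deiodinase Dio3 was at least 5.31-fold lower. The 1 higher was the activating deiodinase Dio2, at least 2.30-fold, named after its value was seen.

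The clock receptors Nr1d1 and Nr1d2 (REV-ERB) repress and Rora (ROR) activates genes with the same element. Rora was 1.98-fold lower in EGFP+ than in EGFP- tubules (log2 difference -0.99, adjusted p = 2.62e-05), and all 3 of its probes were lower. Nr1d2 was 1.49-fold lower (adjusted p = 0.0373), with overlapping groups. The call was lost without mouse 1, 2 or 4 (adjusted p = 0.177, 0.0849 and 0.0930), centred on the median (adjusted p = 0.124) and with no filter (adjusted p = 0.0672). It was kept with the mouse as a block (adjusted p = 0.00124). Nr1d1 differed by -0.48 and did not pass (adjusted p = 0.189), but passed with the mouse as a block (adjusted p = 0.00299), being lower in EGFP+ tubules in 4 of 4 mice on that probe, while its other 2 probes differed by 0.20 and 0.73. Nr1d1 and Thra lie next to each other on opposite strands, and whether a probe of one reads the other's transcripts was not tested. Of 12 clock genes and targets tested, 3 were higher, 4 lower and 5 did not pass (median -0.26). Of all genes, 32.8% were higher and 25.7% lower. Dbp and Tef, clock output factors, were 3.91-fold and 3.82-fold lower, Arntl, the core activator that REV-ERB represses, 2.99-fold higher, and the repressor Cry2 2.42-fold lower.

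NR4A receptors are immediate early genes without a known ligand. Nr4a1 had signals of 5.18, 4.09, 4.92 and 5.21 in EGFP+ tubules. They were 4.88, 3.04, 3.85 and 3.52 in ALL and 4.63, 3.56, 4.11 and 3.59 in EGFP- tubules. EGFP+ was the highest fraction in every mouse, and the groups overlapped. The difference from EGFP- was 0.87 ± 0.40 SE (adjusted p = 0.0781), and it passed with the mouse as a block (adjusted p = 0.00594) and centred on the median (adjusted p = 0.0241). Nr4a2 differed by 0.49 (95% interval -0.32 to 1.30). Of 11 immediate early genes tested, 2 were higher, 2 were lower and 7 did not pass (median 0.24). Of all genes, 32.8% were higher and 25.7% lower. The growth regulator Myc was 24.7-fold lower and Ier3 17.6-fold higher, while Fos was 2.13-fold higher and the phosphatase Dusp1 1.42-fold lower.

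The orphan receptor Nr2c1 (TR2) was 1.63-fold higher in EGFP+ than in EGFP- tubules (log2 difference 0.70, adjusted p = 0.00333), and 2 of its 3 probes passed. Its relative Nr2c2 (TR4) and the COUP factors Nr2f2 and Nr2f6, regulators of development and repression, differed by 0.20 (95% interval -0.34 to 0.75), 0.06 (-0.17 to 0.29) and 0.07 (-0.39 to 0.53). The estrogen receptor Esr1 was 1.63-fold lower in EGFP+ tubules (log2 difference -0.71, adjusted p = 0.0450). That call was lost with the slide as a block (adjusted p = 0.0589) and without mouse 1, 2 or 3 (adjusted p = 0.106, 0.0945 and 0.0831). With normexp background correction the difference was -0.01 (adjusted p = 0.982), and the call was also lost with quantile normalization, centring on the median and no filter (adjusted p = 0.131, 0.159 and 0.0763). It was kept with the mouse as a block (adjusted p = 0.00292).

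Of the receptors not tested, Esr2, Pgr, Nr4a3 and Nr5a2 were not well above background on any of the 12 arrays, the fatty acid receptor Ppard was on 1 EGFP+ array, and the COUP factor Nr2f1 was on 0 EGFP+, 1 ALL and 2 EGFP- arrays. Outside the list, 5 other nuclear receptors were tested, of which 1 was higher, 2 were lower and 2 did not pass (median -0.27). Of all genes, 32.8% were higher and 25.7% lower. The glucocorticoid receptor Nr3c1 was 2.54-fold lower in EGFP+ than in EGFP- tubules and the mineralocorticoid receptor Nr3c2 1.57-fold higher. Among the 14 receptors of the list with more than 1 tested probe, all probes had the same call in 9, and in none were probes called in opposite directions.

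Against ALL, 8 of the 33 receptors were higher in EGFP+ tubules, 10 were lower and 15 did not pass, beside 31.6% of all genes higher and 24.5% lower (56.1% in either direction). The median difference was -0.04, beside 0.11 over all genes. The groups did not overlap for 15 receptors, beside 53.4% of all genes. This comparison shares the EGFP+ arrays with the one above. The 8 higher were Esrrb, Nr0b2, Esrrg, Vdr, Nr4a1, Rarb, Nr2c1 and Nr6a1, and the 10 lower were Nr1i2, Hnf4a, Nr1h4, Nr1h3, Rxrg, Ppara, Hnf4g, Rxra, Pparg and Rora. Nr4a1 was 2.04-fold higher than in ALL (log2 difference 1.03, adjusted p = 0.0445), a call lost without mouse 2, 3 or 4 (adjusted p = 0.0545, 0.149 and 0.204) and with the slide as a block, normexp, quantile normalization or no filter (adjusted p = 0.0872, 0.0775, 0.0581 and 0.0725). Calls against ALL were lost for Rxrg without mouse 1, 3 or 4 (adjusted p = 0.0870, 0.0667 and 0.0696), for Hnf4g without mouse 1, 2 or 4 (adjusted p = 0.209, 0.128 and 0.143), for Rarb without mouse 2 or 3 (adjusted p = 0.0905 and 0.0825) and for Hnf4g with the slide as a block and with no filter (adjusted p = 0.0512 and 0.0521). With normexp, calls against ALL were also lost for Nr6a1 (0.40, adjusted p = 0.222), Rarb (0.66, adjusted p = 0.0618), Rxrg (-0.82, adjusted p = 0.180) and Hnf4g (-0.45, adjusted p = 0.578). With the mouse as a block, Esr1, Nr1d1, Nr1d2 and Rarg passed as well (adjusted p = 0.0165, 0.00312, 0.00537 and 0.00983).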

How the data were processed

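Gene expression was measured on 12 one-colour Agilent arrays (design 014868), 3 fractions of each of 4 mice. Per the file headers, arrays were read with Feature Extraction 9.5.3.1 and probes placed on the mm8 (NCBI36) mouse genome. The authors deposited linear intensities for each spot, of which the processed signal, background-corrected by that software, was analysed, and the mean signal and local background served for an alternative. Per the labels, RNA was isolated with an Ambion kit, amplified and labelled with Cy3 by a kit for small RNA amounts. The authors' deposited value table holds a rescaled signal. It was used only to compare its headings with the scanner files, which disagree, and the scanner files' labels were kept.

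Control spots and 66 to 516 outlier spots per array were left out, and spots of 1 probe were averaged. The log2 signal was centred on each array's 75th percentile. A probe was tested if it rose well above background on 4 or more of the 12 arrays. The fit used lmFit and eBayes of limma (version 3.58.1, R 4.3.3, with the package data.table in version 1.17.8). It had 1 coefficient per fraction and Benjamini-Hochberg adjustment over all 25819 tested probes, threshold 0.05. The fit was also run on simulated data, drawn independently for each array and so without the likeness between arrays of the same mouse. Sex was tested on each mouse's mean, and its interaction with fraction on each mouse's EGFP+ minus EGFP- difference. Each gene stands as the brightest of its tested probes by mean signal. Levels of different probes were not compared. The number of arrays limits the precision.

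All 39 receptors are named. Values in every sample are given where the difference from EGFP- passed with a size of at least 1 or where sex passed, and for Nr4a1, added after its values were seen. From each gene list up to 4 genes with the largest differences past the threshold are named, and 3 genes that this would name are not reported here. Members and lists were chosen with earlier results of these data known. Genes of the lists under an older name on the array (Perm1, Me1, Slc51a and others) were matched through the RefSeq synonyms. Arrays of the same animal share a mouse number. Deviations from the fraction means were correlated between arrays of different fractions. They correlated at 0.23 to 0.81 within the same mouse (12 pairs) and at -0.68 to 0.59 between different mice (36 pairs), highest between the female mice 1 and 3. Deviations cancel out over the mice of a fraction, which pulls the values between different mice down. The mouse as a block was therefore run beside the unblocked fit.

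Alternatives were normexp background correction (offset 50), quantile normalization, centring on the median, no filter and a filter on all 12 arrays, testing over genes, outlier spots kept, the slide or the mouse as a block, and leaving out each mouse.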

Additional observations from a re-analysis of the deposited data

Results flagged for a closer look

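In the 89 sets of 4 mice, 1 receptor in 1 fraction, where all 4 arrays were well above background, the gap of the highest or lowest sample to its nearest neighbour over the whole range was set against Dixon's critical value. It was passed in 5 sets, about the number chance gives at 1 in 20. Mouse 4 stood apart with the highest signal of Esr1 in EGFP- tubules (-1.67), of Esrra in ALL (4.79) and of Ppara in ALL (2.98). Mouse 3 had the lowest Nr1d1 signal in EGFP- tubules (-1.24), and mouse 2 the lowest Nr1h2 signal in EGFP+ tubules (0.79).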

How the results depend on the processing

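Of the 21 receptors called between EGFP+ and EGFP- tubules, 13 kept their call and direction under all alternatives run for them. Of these, Nr0b2 and Nr1i2 were too dim to be tested with the filter on all 12 arrays. Esr1, Hnf4g, Nr1d2, Nr1h2, Pparg, Rarb, Rarg and Rxrg lost their call under at least 1 alternative. Without 1 mouse, 7 to 9 receptors were higher and 8 to 11 lower than in EGFP-, 7 to 10 higher and 8 to 11 lower than in ALL, 1 higher in ALL than in EGFP-, and 0 higher and 0 lower in males. With normexp, 5 receptors were higher than in ALL, 4 higher and 0 lower in males, and 3 differences turned, Hnf4g against EGFP- to 0.03 and, between males and females, Hnf4g to 0.52 and Rara to 0.49; the cause was not tested. With centring on the median, 13 were higher than in ALL, and 1 higher and 2 lower in males. It added 0.15 to every difference from EGFP-, 0.19 to those from ALL and 0.11 to male minus female, and the median of all genes became 0.27, 0.30 and 0.12. The count lower in males was 0 with quantile normalization, with no filter, which tests more probes, and with the filter on all arrays, where 1 was higher. The replicate block, with the mouse as the pair, changed no call but those given for Nr4a1 (0.87), Nr1d1 (-0.48) and, against ALL, Esr1, Nr1d2 and Rarg.

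Over all genes, 5425 were higher and 4205 lower than in ALL, against 3283 and 2550 with normexp, and 2761 lower with the filter on all arrays. Between males and females, 159 were higher and 59 lower, against 2750 and 375 with normexp, 458 and 177 centred on the median, 29 and 5 with no filter and 278 and 118 with the filter on all arrays; the share of calls higher in males was 72.9%, against 88.0% with normexp and 85.3% with no filter. Without mouse 1, 2, 3 or 4 the counts were 60 and 15, 18 and 5, 66 and 17, and 13 and 3. Between ALL and EGFP-, 219 were higher, against 110, 84 and 71 without mouse 1, 2 or 3. Dependence on sex was called for 0 genes, against 21 and 34 with the filter on all arrays, 1 and 13 centred on the median and 1 and 7 with quantile normalization. Dim probes (Rara, Rarg, Hnf4g, Rxrg, Nr1i2, Nr0b2) limit what can be read from the signals.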

Other observations

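Because ALL holds both kinds of tubule, a gene's ALL signal can be placed on the linear scale between EGFP- tubules (0%) and EGFP+ tubules of the same mouse. This was done for the DCT markers and, of the receptors, for Esrrb alone. Not every receptor has such a place. Nr0b2 was lower in ALL than in EGFP- tubules in mice 1 and 3 (-4.95 against -3.98 and -4.98 against -4.33), and higher in mice 2 and 4. For Esrrb this place was 6.79% to 10.3% over the 4 mice, with a median of 7.40%. For the DCT markers the medians were 7.69% for Trpm6, 8.36% for Pvalb, 8.89% for Klhl3, 9.31% for Kcnj10, 12.8% for Slc12a3 and 26.0% for Calb1. The range of Esrrb overlapped that of Trpm6 (4.42% to 9.41%), of Pvalb (7.15% to 10.3%), of Klhl3 (6.91% to 9.22%), of Kcnj10 (7.38% to 12.2%) and of Slc12a3 (7.87% to 15.8%). It lay below that of Calb1 (17.6% to 29.4%), and the reason for the higher place of Calb1 was not tested. In a plain mix of EGFP+ and EGFP- tubules every gene would have the same place. The overlap with DCT markers is therefore not particular to Esrrb, and the places of other genes were not computed.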
